A study of Mus musculus with 18 samples.

Results

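Messenger RNA for 10 genes of uridine and uracil salvage, transport and breakdown was followed in mouse embryonic fibroblasts (MEFs), which are matrix-producing cells cultured from embryos, after uracil was added to their medium. The genes were Upp1, Tymp, Uprt, Uck1, Uck2, Uckl1, Slc29a1, Slc29a2, Cda and Dpyd, chosen by name and found by their Ensembl identifiers among the 55487 genes of the count table. All 10 had a row in the table, and 9 of the 10 passed the filter on low counts that 13865 genes passed. The exception was Dpyd. The MEFs were kept for 24 h in serum-containing medium without added uracil (control), with 10 µM uracil or with 30 µM uracil, and each dose had 6 libraries numbered 1 to 6. The groups were described alike in cell type, medium and duration, and a genetic change is named for none of them. The labels give neither the strain nor the age of the embryos. The study's methods speak of 6 biological replicates for each condition. Neither source says whether the 6 numbers stand for separate embryos, cultures or days, so p-values measure the spread between these libraries only.

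Cells make UMP, the parent of all pyrimidine nucleotides, either from small precursors or by salvage. In salvage, equilibrative carriers bring nucleosides across the membrane, uridine kinases phosphorylate uridine to UMP, and cytidine deaminase turns cytidine into uridine. The phosphorylases Upp1 and Tymp join a base to a sugar phosphate or split it off again, so they, like the related uridine phosphorylase Upp2, can join free uracil to a sugar, whereas Dpyd starts the breakdown of uracil towards β-alanine. RNA levels show which of these genes were transcribed, and enzyme amounts and fluxes were not measured here.

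Gene counts per library ranged from 3963932 to 20775298. A floor of 3 counts therefore corresponded to 0.144 CPM in the deepest library and 0.757 CPM in the shallowest, where CPM are counts scaled to a library of 1000000. Unaligned reads took between 1.717% and 3.587% of reads in 15 libraries. Control replicate 1 had 54.21%, 10 µM replicate 6 had 5.244% and 30 µM replicate 6 had 37.86%, and these 3 libraries also had the lowest mean correlations with the others. The study's methods state that 1 control and 1 30 µM sample were set aside for human RNA, without naming them, and all 18 libraries were used here unless stated. Of 8 fibroblast markers, 7 had a mean of at least 1 CPM, and Fap, a fibroblast surface protease, was below it. The summed fibroblast markers ranged from 25200 to 29300 CPM in the 15 libraries with few unaligned reads. They reached 38800 CPM in control replicate 1, 28200 CPM in 10 µM replicate 6 and 57000 CPM in 30 µM replicate 6. The 6 neutrophil markers summed to at most 0.756 CPM, and Elane, a neutrophil granule protease, was at 0 in every library. The 4 macrophage markers summed to 1.08 to 3.08 CPM and the 4 endothelial markers to 7.18 to 11.8 CPM. The 6 epithelial and mesothelial markers summed to 24 to 149 CPM in control, 42.2 to 145 CPM at 10 µM and 37.5 to 162 CPM at 30 µM, with the mesothelial gene Msln at a mean of 60.3 CPM, and their part in the results was not tested.

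To see which routes were transcribed at all, levels were first compared per length, as CPM per kilobase of exon (RPKM). The uridine kinase Uck2 stood highest with 42.3 ± 2.44 RPKM (SD, n = 18), and the nucleoside carrier Slc29a1 followed with 15.8 ± 0.821 RPKM. The uridine kinase Uck1 had 8.35 ± 0.435 RPKM. At the other end, the uridine phosphorylase Upp1 had 0.159 ± 0.0688 RPKM, the thymidine phosphorylase Tymp had 0.121 ± 0.0446 RPKM, and Dpyd, the dehydrogenase that opens uracil breakdown, had 0.0051 RPKM. Uck2 ranked 671 and Slc29a1 ranked 2067 among 21614 protein-coding genes by mean RPKM, with the union of exons as length. Upp1 ranked 11937, Tymp 12162 and Dpyd 15225, where 4588 coding genes were at 0 throughout. The routes did not separate gene by gene: Uprt, the homologue of a direct uracil-to-UMP enzyme, had 1.67 ± 0.482 RPKM and lay above the carrier Slc29a2, with 0.533 ± 0.141 RPKM, in 18 of 18 libraries. In such bulk libraries, expression in fewer cells and less RNA per cell cannot be told apart.

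**Figure D1:**
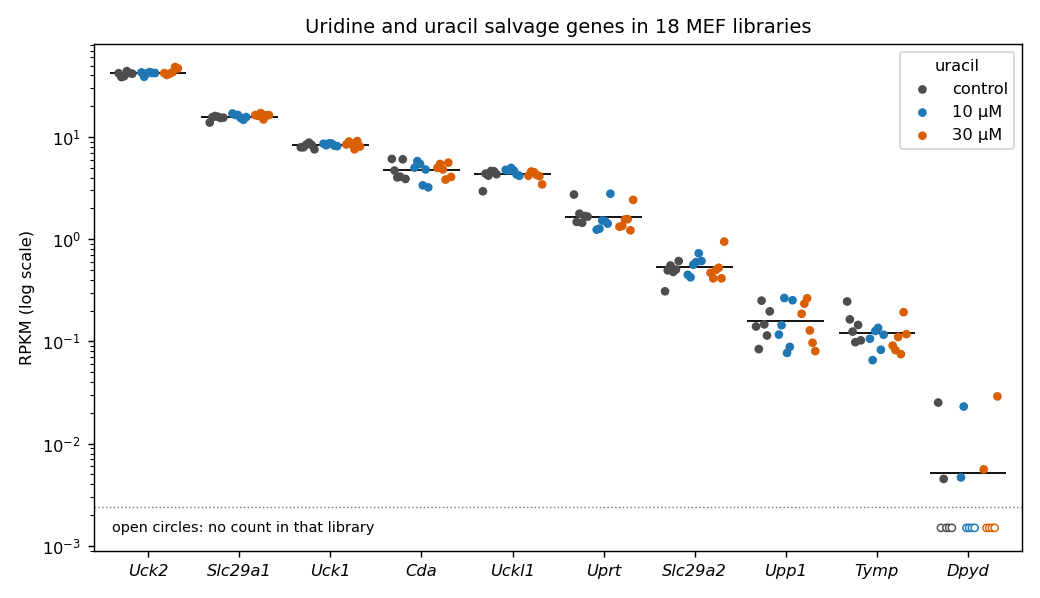
RPKM (log axis) of the 10 genes in each of 18 libraries, ordered by mean; colours mark the uracil dose, black lines the mean over 18 libraries, and open circles libraries without a count. Uck2 lies at 38.6 to 48.4 RPKM in every library, Upp1 and Tymp lie below 0.3 RPKM, and Dpyd has no count in 12 of 18 libraries.

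Most neighbours in this order were separated in every library. Uck2 exceeded Slc29a1, Slc29a1 exceeded Uck1, Uckl1 exceeded Uprt, Uprt exceeded Slc29a2 and Slc29a2 exceeded Upp1 in 18 of 18 libraries, with ranges that did not overlap. Cda, the cytidine deaminase, and Uckl1 could not be ordered: Cda had 4.74 ± 0.900 RPKM and Uckl1 4.33 ± 0.486 RPKM, and Cda was higher in only 12 of 18 libraries. When the longest transcript was taken as the length instead of the union of exons, this order turned, with 9.22 RPKM for Uckl1 against 5.72 RPKM for Cda. With that length Uck2 had 49 RPKM and Slc29a1 31.3 RPKM. The ranges of Uprt and Slc29a2 then overlapped, although Uprt stayed higher in 18 of 18 libraries. Upp1 and Tymp could not be ordered either, since Upp1 was higher in 12 of 18 libraries and their ranges overlapped. Tymp is also uncertain for another reason: on GRCm39, 80.9% of its exon bases lie in exons of Sco2, a gene on the same strand, and 57.7% lie in exons of Ncaph2 on the opposite strand.

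The sequences upstream of the start sites of Uck2, Upp1 and Dpyd are shown because these genes mark the top, the near-floor and the barely detected end of the range. RefSeq promoter entries (GRCm38.p6) were found for all 10 genes. The 250 bases before the start are given 5′ to 3′ on the gene's strand, for Uck2 chr1:167285128-167285377 (minus strand), for the first of 3 Upp1 entries chr11:9117758-9118007 (plus strand) and for Dpyd chr3:118561930-118562179 (plus strand), with each CG pair in capitals.
Uck2: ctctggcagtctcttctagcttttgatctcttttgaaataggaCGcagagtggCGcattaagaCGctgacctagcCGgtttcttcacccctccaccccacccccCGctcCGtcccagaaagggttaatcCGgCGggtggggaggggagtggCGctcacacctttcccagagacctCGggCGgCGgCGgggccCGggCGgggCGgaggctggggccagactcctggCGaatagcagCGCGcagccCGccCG
Upp1: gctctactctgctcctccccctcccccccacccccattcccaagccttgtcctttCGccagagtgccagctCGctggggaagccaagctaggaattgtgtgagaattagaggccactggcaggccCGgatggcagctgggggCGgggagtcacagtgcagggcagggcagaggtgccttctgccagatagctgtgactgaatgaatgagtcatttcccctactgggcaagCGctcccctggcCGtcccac
Dpyd: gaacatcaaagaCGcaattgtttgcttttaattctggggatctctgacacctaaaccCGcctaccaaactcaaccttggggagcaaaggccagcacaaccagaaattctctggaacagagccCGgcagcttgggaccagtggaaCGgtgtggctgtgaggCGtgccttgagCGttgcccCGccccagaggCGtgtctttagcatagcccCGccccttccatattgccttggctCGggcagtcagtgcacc
Uck2 has 21 CG pairs in this window, and 16.3% of 32851 windows of the same length in the RefSeq table have as many or more. Dpyd has 10 CG pairs, which 37.8% of windows reach. The first and second Upp1 windows have 6 each, which 50.4% of windows reach, and the last has 10, as many as Dpyd. The pair CG itself occurs at least once in 92.1% of windows. CG content and transcript level did not run in the same order: Uprt, with 4 pairs in its window, had 1.67 RPKM, whereas Dpyd with 10 pairs had 0.0051 RPKM. These counts describe the letters in the window only.

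Uck1 and Uck2 turn uridine and cytidine into their monophosphates, and whether the related Uckl1 does so was not measured here. The 3 genes were unequal in level. Uck2 (ENSMUSG00000026558, chr1:167050452-167112889 on GRCm39, minus strand) made up 76.9% ± 1.5 of their summed RPKM, with 74.8% in the lowest library and 80.3% in the highest. Uck1 (ENSMUSG00000002550, chr2:32145014-32150350, minus strand) made up 15.2% ± 0.750. Uckl1, a uridine-cytidine kinase-like protein (ENSMUSG00000089917, chr2:181210926-181226685, minus strand), made up 7.88% ± 0.952. With the longest transcript as length the Uck2 share was 70.8% and the Uckl1 share 13.3%, so the order of the 3 genes held. An antisense long non-coding RNA shares 13.8% of the Uckl1 exon bases, and the strand setting of the counting is not given in the sources used here.

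Uck2 hardly moved with dose. The 6 control libraries had 212 CPM at the lowest, a median of 231 CPM and 243 CPM at the highest. At 10 µM the lowest was 214, the median 233 and the highest 238 CPM, and at 30 µM these were 223, 234 and 266 CPM. The groups overlapped over most of their range, and the highest library was 30 µM replicate 5. Relative to control, Uck2 had a log2 fold change of 0.020 ± 0.055 (SE) with 10 µM and of 0.081 ± 0.055 with 30 µM uracil, and its adjusted p was 1 and 0.934 (edgeR quasi-likelihood test, Benjamini-Hochberg over all genes tested). The 95% interval at 30 µM ran from 0.977-fold to 1.15-fold. Uck1, also a uridine-cytidine kinase, averaged 24.1 ± 1.30 CPM in control against 24.9 ± 0.689 CPM with the lower dose and 25 ± 1.72 CPM with the higher (SD, n = 6). Its log2 fold change at 30 µM was 0.049 ± 0.059, and its interval ran from 0.950-fold to 1.13-fold.

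The control mean of Uckl1 was 22.2 ± 3.37 CPM, its mean with 10 µM uracil was 24.5 ± 1.63 CPM, and with 30 µM it was 22.3 ± 2.19 CPM. Its lowest values were 15.6 CPM in control replicate 1 and 18.3 CPM in 30 µM replicate 6, and both libraries had many unaligned reads, whose part in the result was not tested. In each of the 6 replicate numbers, Uckl1 was lower at 30 µM than at 10 µM. Between these doses its log2 fold change was −0.13 ± 0.092, with an interval of −0.32 to 0.063 and an edgeR adjusted p of 1. Without the 3 libraries it was −0.11 ± 0.055, lower in 5 of 5 numbers, and its edgeR adjusted p was again 1.

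**Figure D2:**
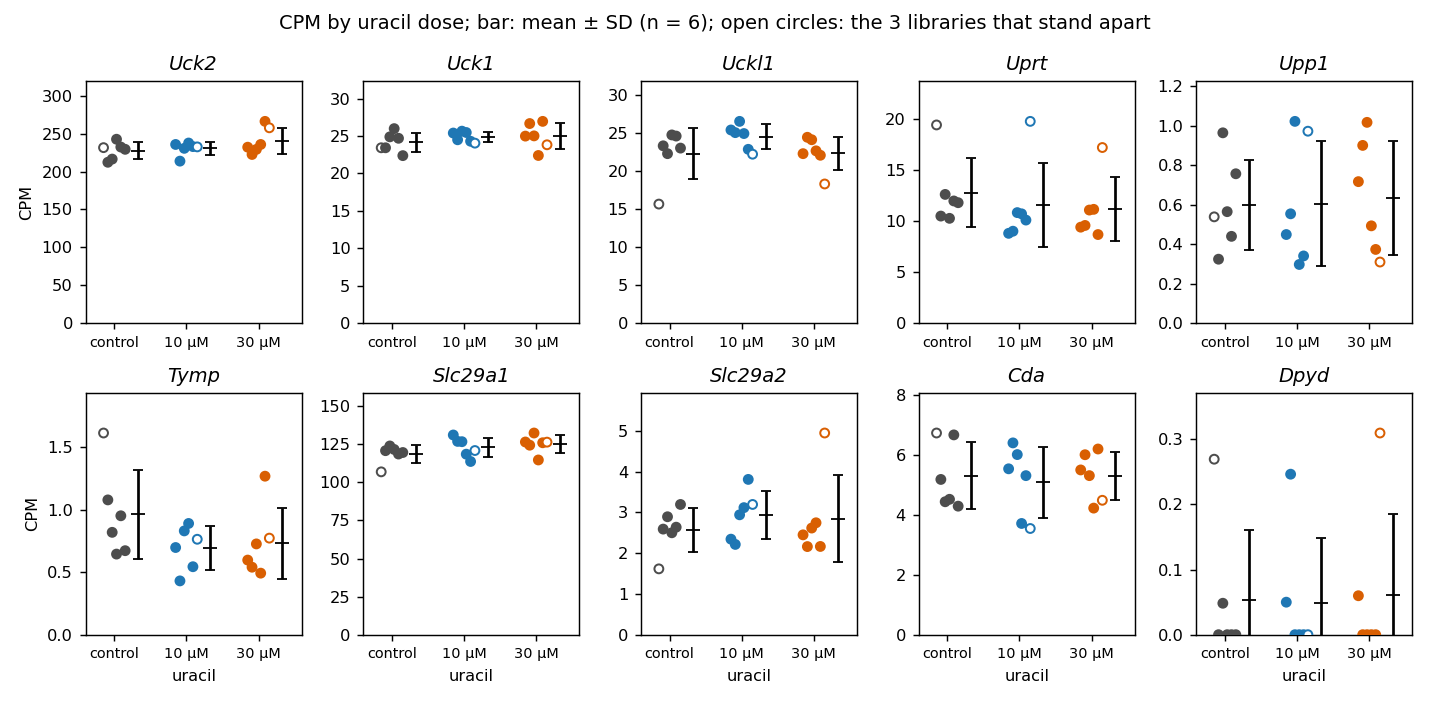
CPM of each gene (linear axes from 0) in 6 libraries per uracil dose, with the mean ± SD beside them (cut at 0 for Dpyd) and the 3 libraries with the most unaligned reads as open circles. In all 10 panels the doses overlap, and in the Uprt panel the 3 open circles, at 17.2 to 19.7 CPM, lie above every filled circle.

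Uprt is the mouse homologue of the microbial uracil phosphoribosyltransferase, which joins uracil directly to phosphoribosyl pyrophosphate to give UMP, and whether the mammalian protein does so was not measured here. The gene (ENSMUSG00000073016, chrX:103526381-103555833, plus strand) shares no exon bases with another gene. It was detected in every library, with 72 to 284 counts, and had 1.67 ± 0.482 RPKM (SD, n = 18). In control the lowest library had 10.3 CPM, the median was 11.9 CPM and the highest had 19.4 CPM. At 10 µM these values were 8.78, 10.4 and 19.7 CPM, and at 30 µM they were 8.66, 10.3 and 17.2 CPM. The highest library of each dose was the one with the most unaligned reads of that dose, and the other 15 libraries had 8.66 to 12.6 CPM. Against control, 10 µM uracil gave Uprt a log2 fold change of −0.11 ± 0.21 and 30 µM gave −0.18 ± 0.21 (edgeR adjusted p of 1 and 0.957).

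Leaving out these 3 libraries narrowed the Uprt spread. Its mean was then 11.4 ± 1.00 CPM without uracil, 9.87 ± 0.945 CPM with 10 µM and 9.96 ± 1.09 CPM with 30 µM (SD, n = 5). The log2 fold changes were −0.22 ± 0.094 and −0.21 ± 0.095, with intervals of −0.42 to −0.019 and −0.41 to −0.0071. Uprt had an unadjusted p of 0.0334 at 10 µM and 0.0432 at 30 µM, where 656 and 602 of 13888 genes had one under 0.05, and did not pass the test across genes, with edgeR adjusted p of 0.998 and 0.944. It was lower than control in 3 of 4 numbers at either dose, and the groups overlapped.

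The phosphorylases were close to the detection floor. Upp1 (ENSMUSG00000020407, chr11:9067953-9086370, plus strand), the enzyme that splits uridine into uracil and ribose 1-phosphate and can run in reverse, had 2 to 20 counts per library and 162 counts in all. It had 0.324 CPM in the lowest control library, a median of 0.552 CPM and 0.965 CPM in the highest. At 10 µM the corresponding values were 0.297, 0.502 and 1.02 CPM, and at 30 µM they were 0.309, 0.605 and 1.02 CPM. The doses covered almost the same range. Upp1 differed from control by −0.014 ± 0.36 on the log2 scale with 10 µM uracil and by 0.12 ± 0.37 with 30 µM (edgeR adjusted p of 1 and 0.999). The 95% interval at 30 µM ran from 0.637-fold to 1.86-fold.

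Tymp (ENSMUSG00000022615, chr15:89251677-89261317, minus strand), which acts on thymidine and deoxyuridine, had 5 to 20 counts per library. Its control mean was 0.965 ± 0.359 CPM, against 0.694 ± 0.176 CPM with 10 µM uracil and 0.734 ± 0.284 CPM with 30 µM. The control group held the highest library, 1.62 CPM in control replicate 1, which rested on 6 counts. On the log2 scale these doses differed from control by −0.38 ± 0.26 and −0.32 ± 0.27 (edgeR adjusted p of 1 and 0.937). The 10 µM interval ran from 0.525-fold to 1.13-fold. How reads over the exon bases shared with Sco2 were assigned is not given in the sources used here, so the Tymp count is uncertain. Reads ambiguous between genes were an uncounted entry that took 0.5035% to 1.641% of each library. Any Tymp reads placed there are missing from its count, and its RPKM and rank would then be too low.

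Of the equilibrative nucleoside carriers, Slc29a1 (ENSMUSG00000023942, chr17:45896125-45910733, minus strand), the common carrier of the plasma membrane, made up 96.7% ± 0.831 of the summed RPKM of the pair. Slc29a2 (ENSMUSG00000024891, chr19:5073562-5082385, plus strand), a carrier of nucleosides and bases, made up 3.26%, and at most 5.47% in any library. Slc29a1 had 107, 120 and 124 CPM in the lowest, median and highest control library. At 10 µM these were 114, 124 and 131 CPM, and at 30 µM they were 115, 126 and 132 CPM. The medians differed by less than the range within a dose, and the lowest value belonged to control replicate 1. Its log2 fold change against control was 0.051 ± 0.052 with 10 µM uracil and 0.075 ± 0.052 with 30 µM (edgeR adjusted p of 1 and 0.934). The interval at 30 µM ran from 0.977-fold to 1.14-fold.

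For Slc29a2 the control mean was 2.57 ± 0.533 CPM, that of 10 µM was 2.94 ± 0.589 CPM and that of 30 µM was 2.85 ± 1.06 CPM. Its highest library was 30 µM replicate 6 with 4.95 CPM and its lowest was control replicate 1 with 1.62 CPM, both with many unaligned reads. The log2 fold change at 30 µM was 0.051 ± 0.20 with all libraries and −0.19 ± 0.16 without the 3, so its direction rested on them. Neither value passed the test (edgeR adjusted p of 1 and 0.944). An antisense RNA shares 14.3% of the Slc29a2 exon bases.

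Cda (ENSMUSG00000028755, chr4:138065735-138095371, minus strand) had 25 to 111 counts per library. It averaged 5.31 ± 1.12 CPM in control, 5.09 ± 1.19 CPM with the lower and 5.29 ± 0.795 CPM with the higher dose. Cda had a log2 fold change of −0.030 ± 0.17 with 10 µM uracil and of 0.030 ± 0.17 with 30 µM, and its edgeR adjusted p was 1 for both. The 2 values lay on either side of 0 and within 1 SE of it.

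Dpyd (ENSMUSG00000033308, chr3:118355778-119226573, plus strand) was barely detected. It had 10 counts over the 18 libraries, and 12 libraries had no count. The largest number was 4 counts, in 10 µM replicate 2, and the other 5 libraries with a count had 1 or 2. In the 12 libraries a count of 0 allows a level of up to 0.163 to 0.259 CPM, depending on depth, and this covers counting error only. Control had 2 counts in all, 10 µM had 5 and 30 µM had 3, so that each dose had 4 libraries at 0. The mean CPM differed by −0.0036 between 10 µM and control and by 0.0086 between 30 µM and control, with two-sided exact permutation p of 1 and 0.848 (adjusted p of 1 for both over 3 comparisons, n = 6 per group). The smallest p this design allows is 0.00216.

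Across the set, no gene passed the test at either dose. Of the 9 genes tested, 0 were called at 10 µM, 0 at 30 µM and 0 between the doses, against a background of 0% of 13865 genes in each comparison, so the count reads the same as for any other genes. At an unadjusted p under 0.05 there were 96 genes at 10 µM, 595 at 30 µM and 323 between the doses, of which 0 belonged to the set. DESeq2 and limma voom also called 0 of the 9 genes in every dose comparison. At 10 µM 5 of the 9 genes had a positive log2 fold change and 4 a negative one, with a median of 0.020 against 0.0059 over all genes tested. At 30 µM 6 were positive and 3 negative, with a median of 0.049 against 0.012. Without the 3 libraries 0 of 9 were called again, against 0% of 13888 genes. At an unadjusted p under 0.05 the genes at 10 µM then rose in number from 96 to 656 and those at 30 µM from 595 to 602, and 1 of the 9, Uprt, was among them at each dose. If no gene differed, a share of about 0.05 of the genes would have such a p, and each of these counts is below that share. No conclusion about dose was drawn from the rise.

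**Figure D3:**
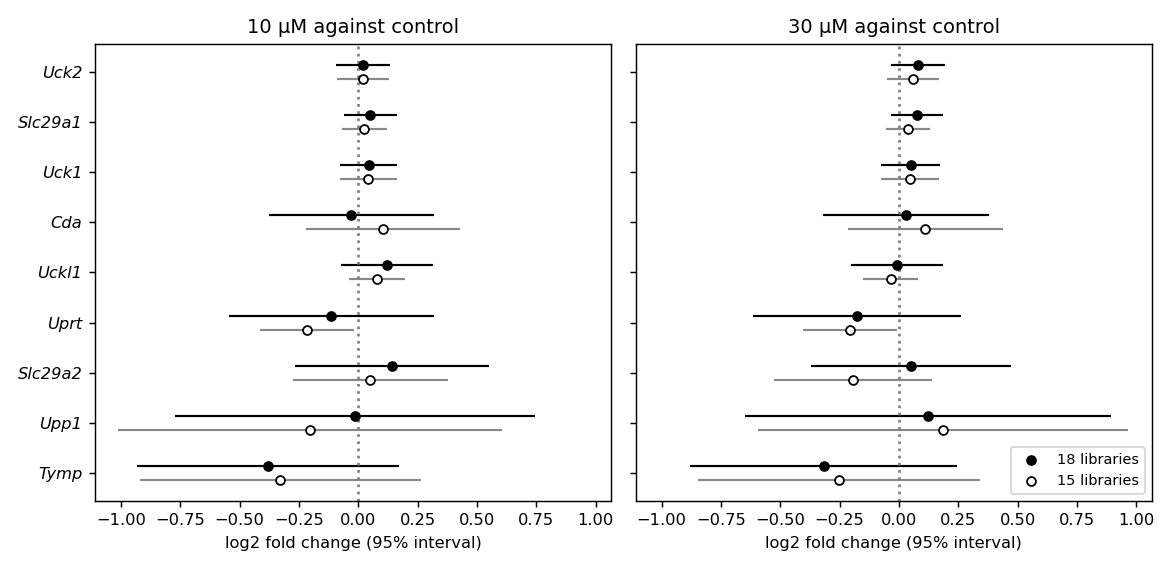
Log2 fold change against control with its 95% interval (edgeR) for the 9 genes tested, at 10 µM (left) and 30 µM (right), with all 18 libraries (filled) and with the 15 that had few unaligned reads (open). With 18 libraries all intervals include 0; they are narrow for Uck2, Slc29a1 and Uck1 and widest for Upp1.

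The spread between libraries differed among the genes. Over the 18 libraries the coefficient of variation was 5.77% for Uck2, 5.21% for Uck1 and 5.19% for Slc29a1. It was 11.2% for Uckl1, 19% for Cda, 26.4% for Slc29a2 and 28.9% for Uprt. For the near-floor genes it was 36.7% (Tymp) and 43.2% (Upp1), where counts of 2 to 20 carry a large counting error. Without the 3 libraries the value for Uprt was 11.4% and that for Uckl1 5.64%, whereas Upp1 stayed at 42.7%.

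Since each replicate number holds 1 library of every dose, levels were also compared across the 6 numbers in a model with dose. Of all genes tested, 12.6% were called by number, and 0 of the 9 genes of the set were. At an unadjusted p under 0.05 there were 3666 of 13865 genes, and 2 of the 9, Cda and Upp1, were among them. No conclusion about the set was drawn from these 2. Cda came nearest, with an edgeR adjusted p of 0.0638. Its mean over the 3 doses was 4.11 ± 0.497 CPM for number 6 and 4.15 ± 0.408 CPM for number 4, against 6.06 ± 0.690 CPM for number 5 (SD, n = 3). The lowest Cda value of number 5, 5.31 CPM, was above the highest of number 4, 4.52 CPM. Both numbers were picked after the values were seen, so this separation is no test. DESeq2 gave Cda an adjusted p of 0.0421, and over the alternatives it ranged from 0.00573 (limma voom) to 0.171 (without 10 µM replicate 6). Leaving out control replicate 1 gave 0.0410, and leaving out control replicate 3 gave 0.0470.

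Upp1 had an edgeR adjusted p of 0.155 by number. Its 3 libraries of number 3 had 0.965, 1.02 and 1.02 CPM, and its 3 libraries of number 5 had 0.440, 0.340 and 0.373 CPM. These 2 numbers had the highest and the lowest mean of the 6 and were picked after the values were seen. That they did not overlap is therefore no test, and the values rest on 14 to 20 and on 5 to 6 counts. Uprt had an edgeR adjusted p of 0.207, which fell below the threshold when control replicate 1 (0.0173) or control replicate 6 (0.0114) was left out. Those fits leave 10 µM replicate 6 and 30 µM replicate 6, with 19.7 and 17.2 CPM, in number 6. Without 10 µM replicate 6 the edgeR adjusted p of Uprt was 0.645, and without the 3 libraries it was 0.352. Uck2 had an edgeR adjusted p of 0.358 with all libraries and 0.0737 without the 3. Number 2 had 216 ± 5.55 CPM, number 4 had 239 ± 3.56 CPM and number 5, with the highest mean, had 244 ± 19.4 CPM. These numbers too were picked after the values were seen. Without the 3 libraries 20.8% of the genes tested were called by number, and 0 of the 9.

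**Figure D4:**
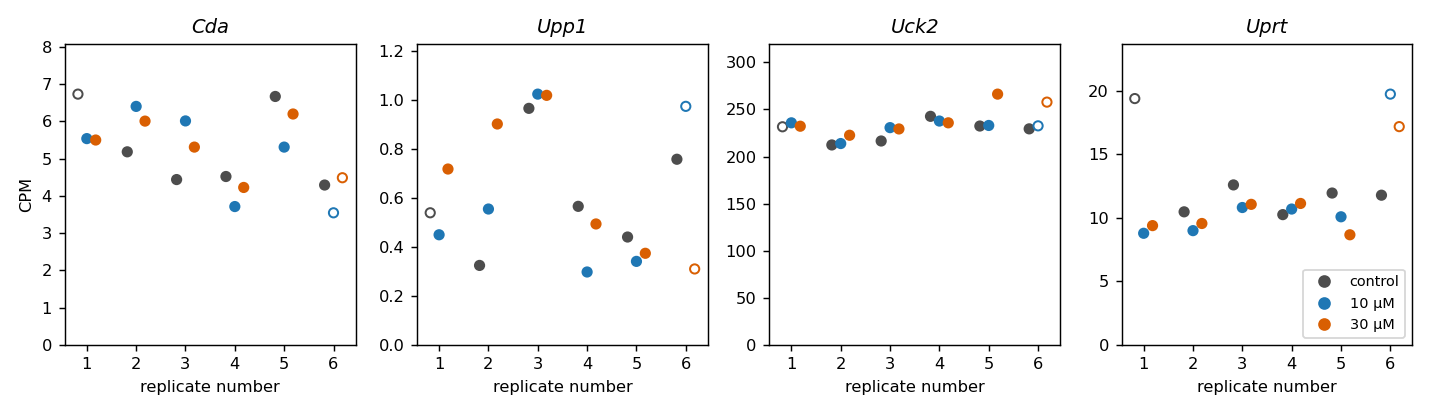
CPM (linear axes from 0) of Cda, Upp1, Uck2 and Uprt by replicate number, with colours for the uracil dose and the 3 libraries with the most unaligned reads as open circles. The 3 libraries of number 3 have the same Upp1 level within 0.06 CPM, and number 4 has less Cda than number 5 at each dose. These numbers were picked after the values were seen.

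The genes around these routes were described from 10 lists of 56 genes, of which 42 passed the filter, and 0 of the 42 were called in any dose comparison (background 0%). The highest by mean RPKM were Nme2, a nucleoside diphosphate kinase, with 49.9 ± 9.30, Nt5c, a nucleotidase, with 48.4 ± 4.98, and Mtap, a phosphorylase of methylthioadenosine, with 45 ± 4.25 RPKM (SD, n = 18). All 3 genes of UMP synthesis from small precursors were tested: Cad had 29.4 RPKM, Umps 13.7 RPKM and Dhodh 2.92 RPKM, all above the 1.67 RPKM of Uprt. Their log2 fold changes at 30 µM were 0.15 ± 0.15, 0.072 ± 0.077 and 0.25 ± 0.10, with edgeR adjusted p of 0.941, 0.947 and 0.931. Beyond Dpyd, the breakdown list had 4 genes and 1 passed the filter. Agxt2, a mitochondrial aminotransferase, was at 0 in all 18 libraries. Dpys, the next enzyme after Dpyd, had 3 counts in all and Upb1, which releases β-alanine, had 11. Upp2, the second uridine phosphorylase, had 3 to 32 counts per library and 362 in all, or 0.126 ± 0.0303 RPKM beside the 0.159 RPKM of Upp1. Its log2 fold change was 0.12 ± 0.21 at either dose, with edgeR adjusted p of 1 and 0.991. The de novo genes, Upp2, Dpys and Upb1 were named after their values were seen. Of the other nucleoside and base carriers, 2 of 7 passed the filter, and the list reached at most 3.77 RPKM. By replicate number 8 of the 42 genes were called, against 12.6% of all genes tested.

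The genes whose levels tracked the set most closely were sought over the 15 libraries without the 3, among 12997 genes with a mean of at least 1 CPM, as a description of libraries that share doses and numbers. For Uck2 these were Tsen34 (Pearson r = 0.960, Spearman rho = 0.954), a subunit of the tRNA splicing endonuclease, and Lsm4 (r = 0.948, rho = 0.875), an RNA-binding protein of the spliceosome. For Slc29a1 they were Dok1 (r = 0.925) and Ssh3 (r = 0.924), and for Uck1 they were Saraf (r = 0.917) and Ap2s1 (r = 0.885). The other genes with a mean of at least 1 CPM, namely Uckl1, Slc29a2, Uprt and Cda, had a nearest gene at r = 0.855, 0.839, 0.838 and 0.831. These genes were Mmp17, Sec63, Lbhd1 and Tmem17 in that order. The highest of 12997 correlations over 15 libraries can be large by chance alone, so these names are no evidence of a link.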

How the data were processed

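Total RNA from 18 MEF samples (3 doses, 6 libraries each, assigned from the sample titles) was sequenced from ribosome-depleted, stranded, paired-end libraries. The authors deposited raw counts, whole numbers of reads per Ensembl gene and library, not normalised. The submitters' processing notes name FastQC, HISAT2, SAMtools (version 1.2) and HTSeq, and the build GRCh38, although the gene identifiers are those of mouse. The annotation release and strand setting are not given in the sources used here. The 5 closing entries of uncounted reads were left out of library sizes (unaligned reads, 1.717% to 54.21% of each library).

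Symbols were given to 51731 of 55487 identifiers with GENCODE annotation of GRCm39, which also gave positions, exon lengths and overlaps. Doses were compared in R 4.3.3 with the quasi-likelihood test of edgeR 4.0.16 (filterByExpr, TMM scaling, robust fit) on all 18 libraries with dose alone. Replicate number was tested by the F test of its 5 coefficients in a model with dose. P-values were adjusted by Benjamini-Hochberg over all genes tested, with a threshold of 0.05. CPM and RPKM used TMM-scaled library sizes. Dpyd, below the filter, was compared by an exact permutation test. The gene counts per library put the floor of 3 counts at 0.144 to 0.757 CPM; intervals cover 95%. Alternatives were DESeq2 1.42.0, its size factors, library totals alone, limma 3.58.1 voom with quality weights, other filters, a replicate block and leaving out libraries.

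All 10 genes were named. From the pathway lists, the rule named the 3 genes with the highest RPKM, genes at 0 in every library and genes called in a dose comparison. For likeness it named the 2 genes with the highest Pearson r of log2 CPM, 0.5 being added to counts, for each of the 10 with a mean of at least 1 CPM. The genes and lists were chosen with earlier results of these data known. The scripts were tested on simulated data.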

Additional observations from a re-analysis of the deposited data

Results flagged for a closer look

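In groups of 6 libraries, a library was marked when its gap to the nearest other library, divided by the range of the group, passed Dixon's critical value for 6 samples. Of 30 groups (10 genes at 3 doses), 11 held such a library, where chance gives about 1 in 20 groups. That share does not apply to the 3 Dpyd groups, in each of which 4 of 6 libraries were at 0 and the marked one had at most 4 counts. Of the 11, 8 lay in the 3 libraries richest in unaligned reads, and whether those reads matter here was not tested.

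Uprt was marked at all 3 doses, always on the high side. Control replicate 1 had 19.4 CPM against 10.3 to 12.6 CPM in the other control libraries. For 10 µM replicate 6 the value was 19.7 CPM against 8.78 to 10.8, and for 30 µM replicate 6 it was 17.2 CPM against 8.66 to 11.1. They rested on 72, 284 and 111 counts.

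Control replicate 1 was also low for Uckl1, with 15.6 CPM against 22.2 to 24.7, and for Slc29a1, with 107 CPM against 119 to 124. In 30 µM replicate 6 Slc29a2 was high, with 4.95 CPM against 2.16 to 2.75.

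Outside these libraries, Uck2 was low in 10 µM replicate 2, with 214 CPM against 231 to 238, and Tymp was high in 30 µM replicate 5, with 1.27 CPM against 0.493 to 0.774, on 17 counts. For Dpyd, control replicate 1 had 0.269 CPM from 1 count, 10 µM replicate 2 had 0.246 CPM from 4 counts and 30 µM replicate 6 had 0.309 CPM from 2 counts, with most other libraries at 0.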

How the results depend on the processing

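Under every alternative run, 0 of the genes tested in the set were called in any dose comparison. By replicate number the count of 0 rose to 1 with DESeq2 (Cda), to 1 with library totals alone (Cda), to 3 with limma voom (Upp1, Uprt and Cda) and to 2 without control replicate 1 and 30 µM replicate 6 together (Upp1 and Cda), and it ranged from 0 to 2 when 1 library was left out. Over all 13865 genes tested, calls by number were 1745, with 2989 by DESeq2, 1578 with library totals alone and 5959 by limma voom. Without control replicate 1 and 30 µM replicate 6 together they were 3287 of 13935. With 1 library left out they were 1272 to 3498 (3498 without control replicate 1, 3271 without control replicate 6). The calls in the set are to be read beside these totals, and no conclusion about the set was drawn from them. A minimum of 10 counts in every library left 6 of the genes tested. The cause of these changes was not tested.

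No dose effect past the threshold turned its sign, since there was none. Log2 fold changes with an interval around 0 did so as follows. Without control replicate 1 and 30 µM replicate 6, Uprt at 10 µM was 0.010, Cda at 10 µM 0.027 and Slc29a2 at 30 µM −0.19. Without the 3 libraries, Cda at 10 µM was 0.11 and Slc29a2 at 30 µM −0.19. With limma voom, Cda at 10 µM was 0.12, Uckl1 at 30 µM 0.011 and Slc29a2 at 30 µM −0.17. The Dpyd difference at 10 µM was 0.040 CPM without the pair and 0.050 CPM without the 3. Leaving out 1 library moved Upp1 from −0.23 to 0.25 (10 µM) and from −0.044 to 0.38 (30 µM), Uprt at 10 µM from −0.33 to 0.0063, Uckl1 at 30 µM from −0.079 to 0.034, Slc29a2 at 30 µM from −0.13 to 0.13, Cda from −0.11 to 0.066 (10 µM) and from −0.022 to 0.13 (30 µM), and the Dpyd difference from −0.043 to 0.040 CPM (10 µM) and from −0.041 to 0.052 CPM (30 µM).

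Libraries with the same number shared deviations from their dose means in 16 of 18 pairs (correlation over 0.1, range −0.10 to 0.71), and 14 of 18 libraries correlated best with their own number, a hint from the data rather than the design. A replicate block called 0 of the 9 genes at either dose. It gave Upp1 at 10 µM 0.031, and without the 3 libraries Slc29a2 at 30 µM −0.11 and Cda at 10 µM 0.069. Without the 3 libraries the block gave Uprt −0.18 at 10 µM and −0.16 at 30 µM. Of the 9 genes, 0 then had an unadjusted p under 0.05 at either dose. Of all 13888 genes tested, 517 had one at 10 µM and 604 at 30 µM. The fit without the block had 1 of the 9, Uprt, beside 656 and 602 of all genes. No conclusion about Uprt was drawn from this change. Depth limits Upp1, Tymp and Dpyd most, with at most 20 counts in a library.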
